A study of Homo sapiens with 16 samples.

Results

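Strong domain boundaries of K562 chromatin were described at 4 lengths of restriction digestion. A domain boundary is a position that few contacts cross, seen as a local minimum of the insulation score. For each 20 kb bin, the mean signal between the 200 kb on its left and the 200 kb on its right was divided by the chromosome mean and put on a log2 scale. The prominence of a minimum is its depth below the lower of the ridges that flank it, in log2 units. Of 5914 boundaries on the 22 autosomes at 12 h with a prominence of at least 0.2, 1727 (29.2%) were strong and shared. These had a prominence of at least 1.0 at 12 h and a boundary in the same or the adjacent bin at 0.25, 1 and 3 h. Another 2667 (45.1%) were shared by all times at a lower prominence, and 1520 (25.7%) were not shared. They were chosen by their scores at all 4 times, so the scores are given as a description without a test.

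K562 is an established human leukaemia cell line that carries the BCR-ABL1 fusion between chromosomes 9 and 22. Fixed cells were digested with HindIII for 0.25, 1, 3 or 12 h before ends were joined inside nuclei, and the series varied this time to find the boundaries that are most accessible to the enzyme. Each time had 2 replicates, each was read in 2 sequencing runs, and all groups share the same cells, fixation and enzyme and differ by label in digestion time. No label says that replicates came from separate cultures, so p-values measure the spread between these libraries, which may be technical. The second run, in 20 kb bins, chose the boundaries, and the first, in 50 kb bins, is another reading of the same libraries. The second run held 62777251 to 176412222 contacts per library and the first 8918994 to 20237350. Depth was highest at 12 h in both replicates. The 1 Mb block of chromosome 9 from 133 Mb and that of chromosome 22 from 23 Mb had the most contacts of any such pair in 16 of 16 files, with 26.2% to 31.9% of all contacts between these chromosomes. That junction is the fusion by which K562 is known.

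In mammalian chromosomes, the ring-shaped complex cohesin extrudes loops of chromatin until it meets the zinc finger protein CTCF bound in a suitable orientation. Segments between such sites contact themselves more than their neighbours and are called topologically associating domains. Boundaries also form at active promoters and where active and inactive compartments meet. On a contact map, a boundary appears as a gap in contacts between its sides, often with a stripe along its edge and a focal spot where a pair of boundaries meet. In cancer lines, the ends of rearranged or amplified segments also appear as edges on such a map. HindIII cuts a 6-base site, so bins differ in how many ends they can give.

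The median 12 h prominence of the strong shared boundaries was 1.34, with quartiles of 1.15 and 1.62 and a highest value of 3.33. At 0.25, 1 and 3 h the median was 1.39, 1.39 and 1.38. Prominence reached 1.0 at 1603 of them at 0.25 h, at 1622 at 1 h and at 1620 at 3 h, and at 1501 at all 4 times. The choice bounds the 12 h value below at 1.0 and the others at 0.2, so these medians are not a comparison between times. Of 1942 boundaries with a prominence of at least 1.0 at 12 h, 215 were left out for want of a partner at another time. A partner was missing for 136 of them at 0.25 h, for 99 at 1 h and for 78 at 3 h.

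The minimum lay in the same 20 kb bin as at 12 h for 1325 boundaries (76.7%) at 0.25 h, for 1353 (78.3%) at 1 h and for 1398 (80.9%) at 3 h. It lay in the same bin at all 4 times for 1040. At 0.25 h it was 1 bin to the left for 185 and 1 bin to the right for 217.

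In single libraries, the median score at these boundaries was -0.876 and -0.855 (0.25 h, replicates 1 and 2) and -0.888 and -0.873 (1 h). In the 3 h libraries it was -0.879 and -0.863, and in the 12 h libraries -0.861 and -0.852. The 0.25 h libraries overlapped those of each other time, and the 12 h ones lay above those of 1 h and 3 h. At the weaker shared boundaries it ran from -0.377 to -0.349 over the 8 libraries. For 1 boundary, the range of its score over the 8 libraries had a median of 0.256 and a 95th percentile of 0.564.

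**Figure D1:**
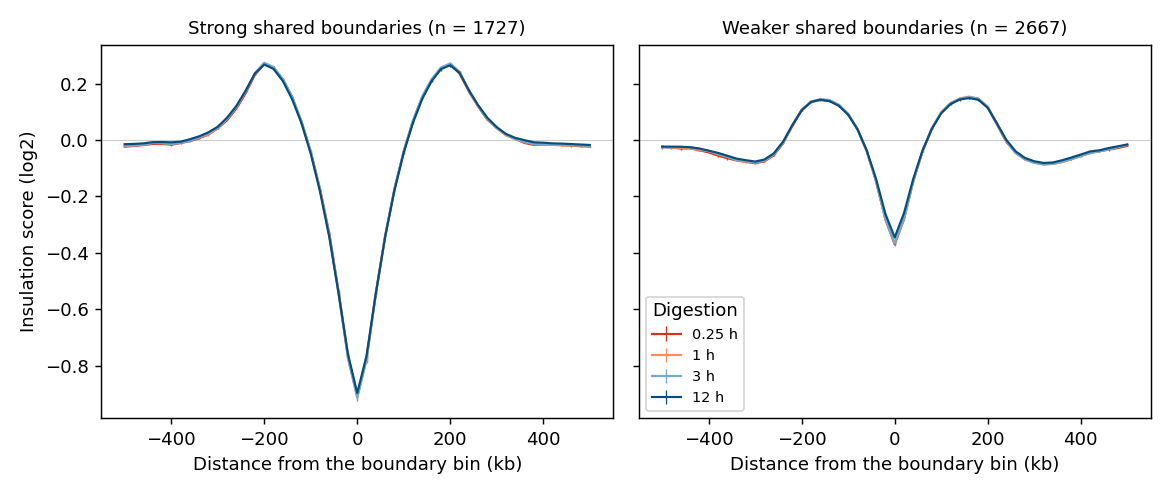
Mean insulation score (log2) against distance from the boundary bin in kb at 0.25, 1, 3 and 12 h, for strong shared boundaries (left) and weaker shared boundaries (right). Lines are means of 2 replicate libraries and bars their SD; the mean at the strong boundary bin was -0.906 ± 0.012 at 0.25 h and -0.897 ± 0.008 at 12 h (n = 2 each), and the curves of the 4 times lie on each other.

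Around the boundary bin the mean score rose to a shoulder of 0.269 at 200 kb on the left and 0.267 on the right at 0.25 h. The corresponding 12 h means were 0.267 and 0.265. The choice of local minima shapes this profile. The depth behind a score was uneven, since the median number of contacts in the 200 kb by 200 kb square was 235 in the shallowest library and 840 in the deepest. In at least 1 library, 175 boundaries had under 100 contacts in that square, and the fewest was 1. Without those 175, the widest range of a score over the libraries was 0.780, against 3.03 with them. All 21 bins within 200 kb were present at 1391 boundaries (80.5%), and the boundary bin itself was present in every library at 1718.

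The boundary of highest prominence, 3.33 at 12 h, lay at chr9:133580001-133600000 (hg19). Its score in replicates 1 and 2 was -2.26 and -1.87 (0.25 h), -2.08 and -2.32 (1 h), -2.13 and -2.08 (3 h) and -2.21 and -2.13 (12 h). All 8 libraries were low, and those at 0.25 h lay on both sides of the 12 h ones. Contacts per bin stepped up from left to right across it by 2.85 to 3.05 (log2 of the median over 10 bins) in the 8 libraries. Contacts with other chromosomes made up 22.2% to 23.7% of those of the bins on its left and 58.3% to 60.9% on its right. It lies in the 1 Mb block of the fusion junction.

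The second, at chr10:111620001-111640000, had a prominence of 3.16. Its score ranged from -1.91 to -1.61, and its contacts stepped by no more than 0.48 in any library. The third, at chr4:79840001-79860000 (3.12), scored -2.28 and -2.23 (0.25 h) and -2.29 and -2.24 (12 h). Those 4 values differ by less than 0.1, and contacts on its sides were within 0.31 of each other. So both had a deep minimum and no large step in contacts per bin.

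The fourth, at chr1:228780001-228800000 (3.00), rested on 49 to 228 contacts in its square, and 3 of its 21 bins were missing. Its scores spread from -2.19 to -1.62, with both extremes at 0.25 h. The sixth, at chr2:130860001-130880000 (2.97), rested on 26 to 118 contacts, with scores from -2.56 to -1.80. The ninth, at chr6:95820001-95840000 (2.85), had 48 to 118 contacts and 7 missing bins. These 3 had the fewest contacts of the 10.

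The fifth, at chr7:84640001-84660000 (2.98), had scores between -2.01 and -1.87. The seventh, at chr13:81460001-81480000 (2.93), lay on an edge where contacts per bin fell from left to right by 3.22 to 3.36 (log2). The eighth, at chr1:71540001-71560000 (2.92), had scores between -2.27 and -1.90, and the tenth, at chr11:27520001-27540000 (2.85), between -1.86 and -1.72. For these 10 the minimum was in the same or the adjacent bin at every time, as the choice requires. No hg19 gene annotation was used, so no gene is named for any interval.

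**Figure D2:**
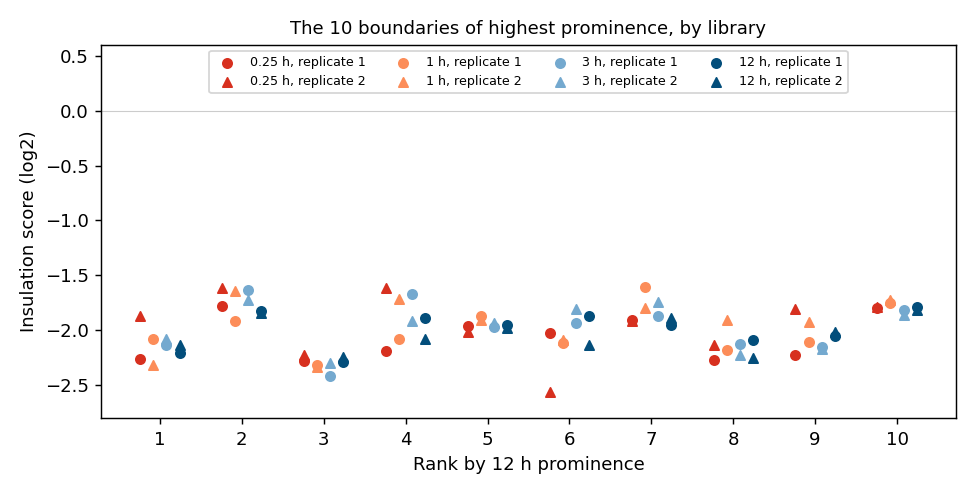
Insulation score (log2) in each of 8 libraries at the 10 boundaries with the highest 12 h prominence, in order of rank; colour gives the digestion time and the symbol the replicate. All points lie between -2.56 and -1.61, and the widest spreads belong to ranks 4 and 6, which had under 100 contacts in the square in some libraries.

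Near the limit of 1.0, the lowest strong boundaries were at chr2:63000001-63020000 and chr12:113880001-113900000, both with a prominence of 1.00 at 12 h. The other lies on chromosome 8 and is not located here. Just below were chr9:108180001-108200000, chr13:39480001-39500000 and chr12:21360001-21380000, whose prominence also rounds to 1.00. At 0.25 h the first pair had prominences of 1.10 and 0.93, and the 3 below had 1.08, 0.87 and 0.85. The limit therefore divides boundaries of like strength.

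Neighbouring strong boundaries were a median of 1000 kb apart, with quartiles of 580 and 1900 kb. All 12 h boundaries were a median of 380 kb apart. In 452 of 1705 neighbouring pairs no other 12 h boundary lay between. The closest pair was on chromosome 3, at 195720001-195740000 and 195940001-195960000, 220 kb apart. The farthest was on chromosome 9, at 37420001-37440000 and 71180001-71200000. That pair was 33.76 Mb apart with 1530 missing bins between, a stretch that includes the centromere.

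The first run was then used to see whether the boundaries reappeared. It is no new replicate, and it was not used to choose them. A minimum within 1 bin of 50 kb was present for 95.5%, 96.4%, 97.3% and 97.6% of the strong boundaries at 0.25, 1, 3 and 12 h. It was present at all 4 times for 1588 (92.0%) and at none for 4. Of the weaker shared boundaries, 71.5% to 74.2% had one at a given time and 1360 (51.0%) at all 4 times. Of those not shared, 61.2% to 61.7% had one at a given time and 505 (33.2%) at all 4. The share of all bins with such a minimum nearby is not given here. Prominence and sharing in the same libraries chose the groups, so the order of their shares is not independent of that choice. The median first-run score at strong boundaries was -0.863 and -0.813 (0.25 h) and -0.839 and -0.814 (12 h), values that interleave.

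The first-run score was compared between 0.25 h and 12 h with limma across all 12 h boundaries that could be scored. None of 1725 strong boundaries was called at an adjusted p under 0.05, and none of 5872 boundaries in all was (0%). Strong boundaries were chosen for a boundary at both times in the second run of the same libraries. Their lack of calls is therefore no result about stability. At an unadjusted p under 0.05 there were 91 strong ones (5.28%), against 5.74% of all. The median difference, 0.25 h minus 12 h, was -0.0044 at strong boundaries, and 90% of differences lay between -0.43 and 0.34. The median standard error of 0.18 (log2) sets the size of change that could be seen at a single boundary. Leaving out 0.25 h replicate 1, so that 1 library at 0.25 h was assumed to vary like the others, gave 3 calls at strong boundaries (0.174%), against 0.375% of all.

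Contacts that cross a boundary over longer distances were measured outside the square that chose it. They joined bins up to 1 Mb to either side and more than 400 kb apart, as observed over the mean of the same distance on the same chromosome. At strong boundaries the median in replicates 1 and 2 was 0.769 and 0.770 (0.25 h), 0.767 and 0.769 (1 h), 0.761 and 0.773 (3 h) and 0.756 and 0.764 (12 h). The median was below the chromosome mean in every library. The 0.25 h libraries lay above the 12 h ones, and the 3 h libraries spanned most of the range. At weaker shared boundaries the medians ran from 0.855 to 0.866, and at those not shared from 0.965 to 0.984. At matched distances of 0.42 to 0.98 Mb, contacts within a side of a strong boundary were 1.03 to 1.05 times the expected level, and crossing ones 0.752 to 0.763. At weaker shared boundaries the sides were themselves low, at 0.938 to 0.952, with crossing contacts at 0.889 to 0.896. At those not shared the sides were at 1.02 to 1.04 and crossing contacts at 0.984 to 0.994. The crossing levels of the groups are therefore to be read beside those of their sides.

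By limma over all 5913 boundaries, 0 of 1727 strong boundaries differed in long-range crossing between 0.25 h and 12 h at an adjusted p under 0.05. One boundary of all, a weaker one, was called (0.0169%). Strong boundaries were chosen for a boundary at both times in these same libraries, so their lack of calls is no result about stability. At an unadjusted p under 0.05, 272 strong boundaries were higher at 0.25 h (15.7%) and 69 lower (4.00%). Among all boundaries these shares were 13.1% and 5.95%. The median difference at strong boundaries was 0.02 (log2), with a median standard error of 0.04, against 0.01 at all. Counts of calls differed between settings. Without 0.25 h replicate 1, 36 strong boundaries were called (2.08%, against 2.42% of all), 34 higher at 0.25 h and 2 lower. That fit has 1 library at 0.25 h, which is assumed to vary like the libraries of the other times. Of all boundaries, 1.83% were then higher and 0.592% lower. With crossing contacts up to 2 Mb to either side, 495 strong boundaries were called (28.7%, against 30.2% of all). Of strong boundaries, 26.1% were higher at 0.25 h and 2.55% lower in this window, against 22.6% and 7.68% of all. On contacts before balancing, 920 were called (53.3%, against 54.2%), and the direction turned, with 396 higher at 0.25 h and 524 lower. Of all boundaries, 20.9% were higher and 33.4% lower on that scale. For calls in either direction, the share at strong boundaries was near that of all boundaries in each of these 3 settings.

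A pile-up of 1713 strong boundaries showed stripes along both edges. Bins 20 kb to the left of the boundary contacted bins 500 kb to its left at 1.62 times the expected level at 0.25 h and 1.59 times at 12 h. Bins 20 kb to the right contacted bins 500 kb to the right at 1.62 and 1.61 times. Contact of the same edge bins with bins 500 kb across the boundary was at 0.996 and 1.00 times at 0.25 h, and at 0.994 and 1.01 times at 12 h. Between bins 100 kb to either side it was 0.470 at 0.25 h and 0.487 at 12 h, a value the choice of boundaries used. The single pair of bins 500 kb to either side had 0.780 and 0.776 at these times, and that 1000 kb to either side had 0.883 and 0.780. The edge bins thus had more long contacts on their own side, and about the mean level across.

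**Figure D3:**
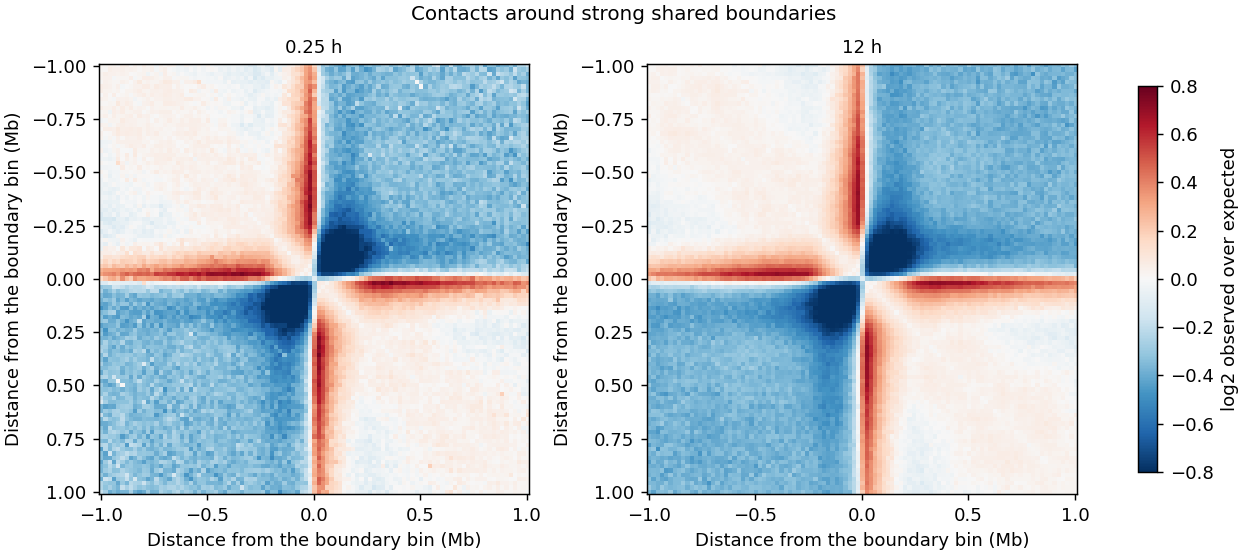
Mean contact around 1713 strong shared boundaries at 0.25 h (left) and 12 h (right) as log2 of observed over expected, with both axes giving distance from the boundary bin in Mb and colours limited at 0.8 in either direction. Red stripes run along both edges of the boundary at both times, and the dark blue squares beside the centre are the contacts that chose the boundaries.

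The stripe was measured in each library after it had been seen in this pile-up. For bins 20 to 40 kb from a strong boundary, contacts with bins 0.42 to 0.98 Mb further out on their own side had a median of 1.37 and 1.37 times the expected level at 0.25 h. At 12 h it was 1.39 and 1.37, and the libraries at 1 and 3 h lay between 1.37 and 1.38. For bins 200 to 220 kb from the boundary it was 0.931 to 0.954. The ratio of nearer to farther bins ran from 1.45 to 1.48 over the libraries and was above 1 in all 8 at 1288 of 1727 boundaries. It ran from 1.21 to 1.24 at weaker shared boundaries, with 1446 of 2667 above 1 in all 8. At boundaries not shared it ran from 1.16 to 1.18, with 689 of 1520 above 1 in all 8. Balancing sets all bins to the same total, so a bin with few short crossing contacts can gain elsewhere. Its part in the stripe was not tested. On contacts before balancing, the ratio at strong boundaries was 1.44 to 1.47, and at 1190 it was above 1 in all 8 libraries. At weaker shared boundaries it was 1.23 to 1.25 on that scale, with 1497 above 1 in all 8. At those not shared it was 1.15 to 1.17, with 742.

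Neighbouring boundaries can also contact each other, which on a map is the corner of a domain. Of 2722 neighbouring pairs of 12 h boundaries 400 kb to 2 Mb apart, 287 joined 2 strong shared boundaries, at a median distance of 520 kb. For the 282 pairs with a value in every library, the square of 3 by 3 bins where they meet had a median of 2.18 ± 0.08 times the expected contact at 0.25 h and 2.15 ± 0.07 times at 12 h (SD, n = 2 libraries each). The 1 h libraries had 2.27 and 2.17 and the 3 h libraries 2.17 and 2.20, so the times overlapped. The same square moved 200 kb along the diagonal, either way, had 0.657 to 0.710. A moved square lies across one of the boundaries, so the choice of boundaries with few crossing contacts partly sets its low level. The corner was above the moved square in all 8 libraries for 241 of 282 pairs. For 1097 other pairs of shared boundaries the corner medians ran from 1.67 to 1.71, and 786 were above the moved square in all 8. For 1267 pairs with a boundary that was not shared they ran from 1.45 to 1.54, and 581 were above the moved square in all 8. Median contacts in a corner of 2 strong boundaries were 31 in the shallowest library and 117 in the deepest.

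**Figure D4:**
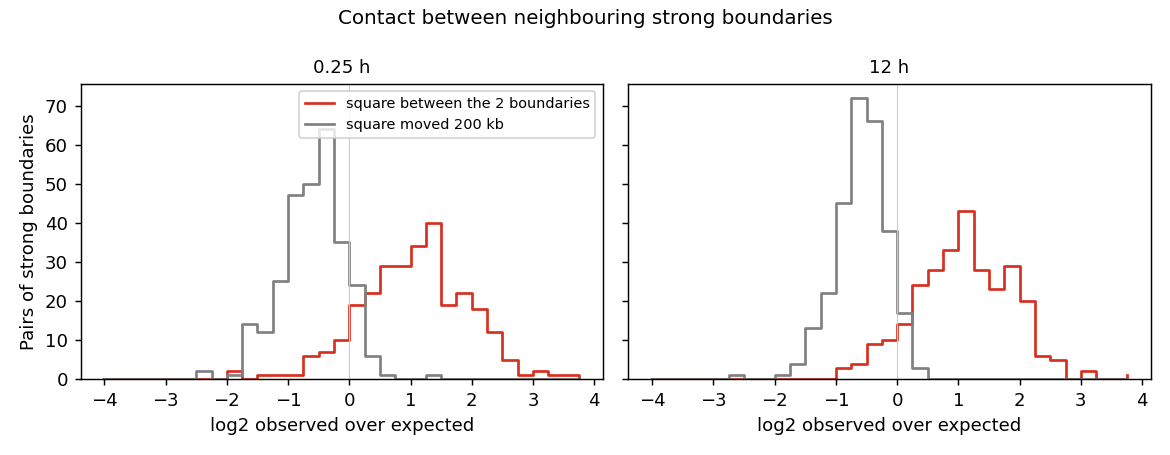
Number of pairs of neighbouring strong boundaries against log2 of observed over expected contact, at 0.25 h (left) and 12 h (right), for the 3 by 3 bin square between the 2 boundaries (red) and the same square moved 200 kb (grey). Most corner values lie above 0 and most moved ones below 0 at both times.

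Contact in these corners was compared between 0.25 h and 12 h with limma over 2659 pairs. At an adjusted p under 0.05, 0 of 282 pairs of strong boundaries and 1 pair of all (0.0376%) were called. Both boundaries of a strong pair were chosen for their presence at both times in these libraries, so this too is no result about stability. At an unadjusted p under 0.05 there were 17 strong pairs (6.03%), against 6.28% of all. The median difference was 0.02 (log2), and the median standard error of 0.21 leaves small changes at a single pair out of reach.

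Self-contacts, which join a 20 kb bin to itself, lie outside the square that chose the boundaries. They fell with digestion time. The median share of self-contacts among the contacts of a strong boundary bin was 6.27% and 6.71% (0.25 h, replicates 1 and 2), 5.88% and 6.10% (1 h), 5.75% and 5.71% (3 h) and 3.78% and 3.72% (12 h). Both 0.25 h libraries lay above all others and both 12 h libraries below. Over all autosomal bins the medians were 7.34% and 7.83% in the 0.25 h libraries and 4.28% and 4.22% in the 12 h libraries.

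By limma over 129998 autosomal bins, 1064 of 1718 strong boundary bins differed between 0.25 h and 12 h at an adjusted p under 0.05, all of them higher at 0.25 h. That is 61.9%, against 65.2% of all bins (65.0% higher and 0.152% lower at 0.25 h), so the boundary bins changed about as often as the genome. Their median log2 difference was 0.80, and that of all bins was 0.82. The value is the log2 of self-contacts over contacts that leave the bin, each with 0.5 added. With each library centred on its median, 420 strong boundary bins (24.4%) were called, against 26.8% of all. Of the 420, 305 were higher at 0.25 h and 115 lower, and of the 34830 called over all bins 24756 were higher and 10074 lower. Higher calls thus outnumbered lower ones over the genome too.

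Low self-contacts limit this test. No self-contact was recorded in any library for 60 of 1718 strong boundary bins (3.49%), against 2.40% of all bins. For 25 of these the difference was called, although it can come only from the number of contacts that leave the bin. The counts were not scaled to library depth, so for such bins the greater depth at 12 h alone raises the difference. Median contacts per strong boundary bin were 1126 and 596.5 in the 0.25 h libraries, against 2031.5 and 1781 in the 12 h libraries. The calls also depend on the number added to each count, since adding 5 gave 1357 called strong boundary bins. Of bins with at least 10 self-contacts in every library, 1048 of 1281 at strong boundaries were called (81.8%), all higher at 0.25 h, against 82.3% of all such bins. The median difference was 0.88 in both. Of bins with at least 1000 contacts in every library, 357 of 366 were called, against 97.4% of all such bins. Of the 437 strong boundary bins under 10 self-contacts in some library, 412 were under it in the shallowest, 0.25 h replicate 2, and 58 in that library alone. For 2 bins it was 12 h replicate 1 alone, and for 2 it was 12 h replicate 2 alone. All 1352 bins under 1000 contacts were under it in 0.25 h replicate 2. The minimum of 10 acts on the count that is tested, so these counts are no support for the direction.

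The largest difference was at chr17:41400001-41420000, by 4.20 ± 0.30 (log2, SE, limma adjusted p = 3.2e-05). Its self-contacts were 44.6% and 60.5% of its contacts in the 0.25 h libraries and 4.65% and 6.56% in the 12 h libraries. The 1 h and 3 h libraries lay from 34.0% to 43.2%, so the 12 h ones were low and apart from all others. On the balanced signal as deposited its difference was 2.88 and was not called (limma adjusted p = 0.888). At chr4:68280001-68300000 the share was 9.75% and 21.5% (0.25 h) against 1.08% and 0.81% (12 h), a difference of 4.13 ± 0.40. At chr2:241380001-241400000 it was 21.2% and 33.3% (0.25 h) against 0.93% and 4.52% (12 h), a difference of 4.03 ± 0.58. The 1 h and 3 h libraries of both lay between. The 12 h shares rest on 14 and 9 self-contacts at the chr4 bin and on 4 and 18 at the chr2 bin. Both bins are thus under the minimum of 10 in a 12 h library. Without 12 h replicate 1 the difference at the chr2 bin was 2.93, and without 12 h replicate 2 it was 5.14. Scores at each of these 3 boundaries varied by at most 0.38 over the libraries, from -1.66 to -1.28 at the first.

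**Figure D5:**
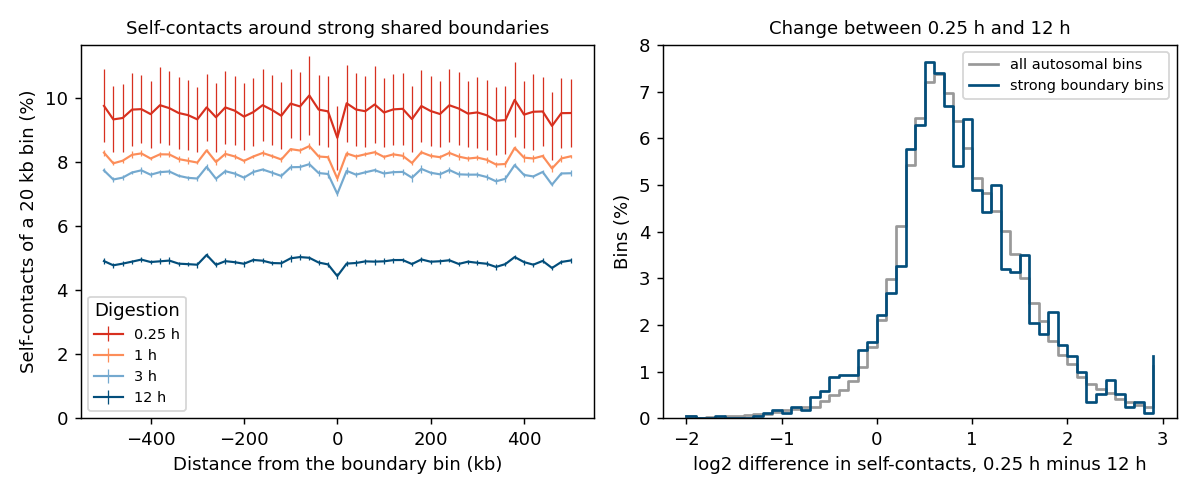
Left, mean self-contacts of a bin in percent against distance from the strong boundary bin in kb at 4 times (bars, SD of n = 2 libraries). Right, share of bins in percent against the log2 difference in self-contacts, 0.25 h minus 12 h, for strong boundary bins and all autosomal bins, with values past the ends placed in the end bins; self-contacts were lower at 12 h at every distance, and the curves on the right overlie each other.

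Averaged over all strong boundaries, the boundary bin had fewer self-contacts than its surroundings at each time. At 0.25 h the mean was 8.75% ± 1.00 at the boundary, 9.82% ± 1.07 at 100 kb to the left and 9.54% ± 1.08 at 100 kb to the right. At 12 h it was 4.44% ± 0.09, 4.99% ± 0.11 and 4.90% ± 0.09 (SD, n = 2 libraries). Within a library, the boundary mean was below both of these sides in 8 of 8 libraries. No test was made on this difference. The dip was also present at weaker shared boundaries, at 4.23% ± 0.07 against 4.88% ± 0.07 and 4.84% ± 0.07 at 12 h. It was deeper there than at strong boundaries in each library. The boundary mean lay below its lower side by 0.607 to 1.23 percentage points, against 0.457 to 0.842 at strong boundaries. For boundaries not shared, the median share of the boundary bin at 12 h was 3.41% and 3.31%, against 3.78% and 3.72% for strong ones. The dip is thus not particular to strong boundaries.

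Contacts that leave the bin were compared after scaling to the library total. By limma, 1031 of 1718 strong boundary bins differed between 0.25 h and 12 h at an adjusted p under 0.05, 353 higher and 678 lower at 0.25 h. The call was made for 56.8% of all bins (21.2% higher and 35.5% lower), 60.1% of the bins 100 to 200 kb from strong boundaries and 60.1% of weaker shared boundary bins. The share at boundary bins was close to that in their own surroundings. Their median difference was -0.07 (log2), against -0.05 for all bins. Scaling by the median of ratios gave 1016 calls, 464 higher (27.0%) and 552 lower (32.1%). Under that scaling 56.8% of all bins were called, 28.6% higher and 28.3% lower, so the majority of lower calls over all bins depends on the scaling. With contacts to other chromosomes alone, 112 were called (6.52%, against 6.69% of all). The median standard error at strong boundary bins was then 0.13, against 0.05 with all contacts that leave the bin, so smaller changes were out of reach. Among bins with at least 1000 contacts in every library, 239 of 366 were called (65.3%), 208 higher at 0.25 h (56.8%) and 31 lower (8.47%). Of all such bins 62.2% were called, 54.0% higher and 8.23% lower. The shallowest library, a 0.25 h one, alone decided which bins reached this minimum, so it favours bins that are high at 0.25 h, and the direction among them is no result about strong boundaries.

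The largest rise at 0.25 h was at chr12:34160001-34180000, by 0.76 ± 0.04 (log2, SE, limma adjusted p = 9.7e-11). Its contacts numbered 2571 and 1459 in the 0.25 h libraries and 2739 and 2323 in the deeper 12 h libraries. At chr2:153580001-153600000 the difference was 0.68 ± 0.05 and at chr7:106800001-106820000 it was 0.66 ± 0.04. Scores at each of the 3 varied by at most 0.30 over the libraries.

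The largest fall was at chr11:47180001-47200000, by -1.11 ± 0.13 (adjusted p = 3.9e-07, limma), from 92 and 52 contacts (0.25 h) against 344 and 319 (12 h). No self-contact was recorded there in any library. At chr17:79480001-79500000 the difference was -0.93 ± 0.13, from 124 and 59 contacts against 391 and 337. At chr16:22540001-22560000 it was -0.84 ± 0.11, from 123 and 70 contacts against 392 and 348. With contacts to other chromosomes alone, the differences at these latter boundaries were -0.51 and -0.72 and were not called (limma adjusted p = 0.18 and 0.051). Standard errors are larger in that setting, so the lost calls do not show that the change is absent there. These 3 bins had few contacts, and the 3 that rose had many. At the chr17 boundary the score ran from 0.15 to -0.38, with 6 of 21 bins missing, and its prominence was 0.45 at 0.25 h and 1.22 at 12 h. At the chr16 boundary the score ran from -2.13 to -1.35, with 5 of 21 bins missing and 72 contacts in the square in 0.25 h replicate 2.

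Contacts per bin differed between the sides of strong boundaries at shares like those of other boundaries. The log2 ratio of the sides' medians, over 10 bins each, was 0.5 or more in size in all 8 libraries at 399 (23.1%) and 1 or more at 86 (4.98%). At weaker shared boundaries these were 588 and 98 of 2667 (3.67% for the latter), and at those not shared 350 and 70 of 1520 (4.61% for the latter). Steps of 2 or more were found at 12 strong boundaries (0.695%), at 0.525% of weaker shared ones and at 0.592% of those not shared. The largest, chosen after their values were seen, were at chr22:23620001-23640000, chr13:94040001-94060000 and chr13:81460001-81480000.

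At chr22:23620001-23640000, contacts per bin fell from left to right by 3.46 to 3.76 (log2) over the libraries. The share of contacts with other chromosomes was 47.2% to 50.4% on the left and 25.9% to 31.1% on the right, and scores ran from -2.67 to -2.18. It lies in the chromosome 22 block of the fusion junction. At chr13:94040001-94060000 they fell by 3.35 to 3.52, with 23.5% to 26.4% of contacts to other chromosomes on the left and 9.82% to 11.7% on the right. Its prominence was 0.76, 1.76, 0.87 and 1.70 at 0.25, 1, 3 and 12 h. The part of copy number in the scores at these positions was not tested. Without the 86 boundaries with a step of 1 or more, 1641 strong boundaries remained.

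Partners on other chromosomes were compared between the sides. The measure was the log2 of contacts to the gene-rich chromosomes 16, 17, 19, 20 and 22 over contacts to the gene-poor chromosomes 4, 13 and 18. The median size of the step across a strong boundary ran from 0.210 to 0.250 over the libraries. At weaker shared boundaries it ran from 0.155 to 0.234. Both were highest in 0.25 h replicate 2, the library of fewest contacts, and the other 7 lay from 0.210 to 0.221 at strong boundaries. With 25 bins to a side the order at strong boundaries differed, with 0.233 and 0.231 in the 12 h libraries and 0.195 to 0.210 in the others. The step had the same sign in all 8 libraries at 426 strong boundaries (24.7%), at 293 of 2667 weaker shared ones and at 153 of 1520 not shared (10.1%). With the longer sides these shares were 47.1%, 35.2% and 29.3%. No test was made on these shares.

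Strong shared boundaries were unevenly spread over chromosomes. They numbered 0.482 per scored Mb on chromosome 4, the lowest, and 0.892 on chromosome 17, the highest. On chromosome 19, 30 of 178 boundaries (16.9%) were strong and shared, the lowest share of any autosome, and on chromosome 21 it was 30 of 82 (36.6%), the highest. Across the 22 autosomes, strong boundaries per Mb and protein-coding genes per Mb (gene numbers from RefSeq on a later assembly) had Pearson's r 0.16 and Spearman's rho 0.50. Without chromosome 19 these were 0.64 and 0.65. For the share of a chromosome's boundaries that were strong and shared, r was -0.50 and rho 0.02, and without chromosome 19 they were 0.07 and 0.18. Chromosomes share libraries and differ in base composition and mappability, so the values are a description.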

How the data were processed

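Hi-C contacts of 8 K562 libraries were analysed from 16 deposited tables. Each table lists pairs of bins with a balanced contact signal that the authors deposited, in which every bin has the same total; the submitters' processing notes name HiC-Pro 2.11.1, Bowtie2 2.3.4.1 and hg19, and filters and balancing settings are not given in the sources used here. Whole contacts were recovered from the signal: all listed values came within 0.0232 of a whole number. The members and lists were chosen with earlier results of these data known. A bin counted as present where both replicates listed it. Of the 10 bins to each side of a bin, counted together, at least 60% had to be present. The share of present pairs in the diamond of 10 by 10 bins can therefore be lower than that.

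Tests used limma 3.58.1 (lmFit, eBayes with trend) in R 4.3.3 on log2 values over 8 libraries with time in 4 levels, 0.25 h minus 12 h, with Benjamini-Hochberg adjustment at 0.05 over all features. Scores used numpy 2.4.6 and scipy 1.17.1 in Python 3.11.15. The fitting and boundary scripts were tested on simulated data. Named boundaries are the 10 of highest prominence, the 3 to each side of 1.0, up to 3 called per test and direction with the largest difference, and the closest and farthest neighbours; those on chromosome 8 are counted and not named. Replicate numbers are shared by the times. Differences between replicates 1 and 2 correlated between pairs of times with r from 0.111 to 0.260 for contacts per bin. For long-range crossing r ran from -0.050 to 0.489, the widest range and the highest value of any test. Only contacts per bin had every correlation above 0.1. No label names molecular identifiers, and the handling of PCR copies is not given in the sources used here. Sequence, HindIII sites and GC content were not used here.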

Additional observations from a re-analysis of the deposited data

How the results depend on the processing

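The number of strong shared boundaries was 1040 when all times had to share the same bin and 1065 with a diamond of 20 bins. Of the main set, 806 had 1 of these 1065 within 1 bin. A diamond of 5 bins gave 2354, and 1336 of the main set had 1 of them within 1 bin. The number was 1371 when each replicate number had to hold the boundary by itself and 1665 to 1754 without 1 library. With libraries thinned to 56596439 cis contacts it was 1691, and 1526 of the main set had 1 of them within 1 bin. Adding 5 to each count in the self-contact test, a larger number than in the main setting, gave 1357 called strong boundary bins. Differences in self-contacts were called at 357 strong boundary bins among those with at least 1000 contacts, at 371 of 604 boundaries of prominence 1.5 or more (61.4%), at 420 with each library centred, and at 880 to 1066 without 1 library. Contacts per bin gave 239, 112 (contacts between chromosomes) and 343 of those 604 (56.8%), and 782 to 1029 without 1 library. Long-range crossing gave 920 before balancing, 495 up to 100 bins to either side, 1 at prominence 0.8, and 0 to 36 without 1 library; first-run scores gave 0 to 3 and corners 0. The step in gene-rich preference was 0.245 at prominence 1.5, and 0.213 to 0.218 without 1 library. With the replicate number as a block (replicate block), calls were 1082 for self-contacts, 1114 for contacts per bin and 0 for the other 3 tests, so no count moved by over 1.5 times. Of 124 values of named boundaries under an alternative, 121 kept direction and call, 3 lost the call (the self-contacts of the chromosome 17 boundary at 41400001, and the contacts per bin of those at chr17:79480001-79500000 and chr16:22540001-22560000) and 0 reversed. A setting that left a named bin out gave no value for it, so the 124 values cover only bins that a setting kept. The minimum of 1000 contacts left out every named bin of the self-contact test. It also left out the named bins whose contacts fell. The minimum on self-contacts left out chr4:68280001-68300000 and chr2:241380001-241400000. Alternatives on prominence 0.8 and 1.5 change which boundaries are counted. Depth was highest at 12 h, and in the second run it overlapped among the other times.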
